A study of Mus musculus with 7 samples.

Results

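The Zfp genes are the mouse genes whose symbol is Zfp followed by a number, most of which encode proteins with zinc fingers, small folds held together by a zinc ion. They were found on the arrays by the number inside each target identifier. Identifiers with 1 or 2 leading zeros were looked up among NCBI mouse gene identifiers, and 8884 of 9523 such numbers were found. This gave 149 Zfp genes, read by 194 targets (the bead-bound oligonucleotides of the array), among 7413 named genes in all. A single target read 111 of the 149 genes, and 38 had several. The reference gene table lists 416 Zfp genes, so the arrays speak for part of the family.

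The samples were mouse embryo hearts labelled E13.5, the embryonic day, 3 of them wild-type and 4 Myc-null, with 1 array of an Illumina mouse reference BeadChip for each. Another label gives a wider window of stages, and a free-text label about embryos before activation of their own genome goes with neither and was not used. The protocols speak of RNA from cardiac myocytes but describe whole hearts placed in Trizol, with no separation of cells. The sources used here do not state how or in which cells Myc was deleted, the strain, or whether hearts were pooled. No label ties samples to litters, so p-values measure only the spread between these arrays, which may be technical. All 7 arrays lay on 1 chip, wild-type at positions A to C and Myc-null at positions E to H, and position and genotype cannot be told apart.

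In the most common kind of Zfp protein, each finger carries a pair of cysteines and a pair of histidines around the zinc, and a row of fingers reads a DNA sequence. Many also carry a KRAB box, which recruits the corepressor Trim28 and through it histone methylation, and silences genes and retroelements. Others bind RNA: proteins of the Zfp36 family use a different finger to bind AU-rich elements and speed mRNA decay. KRAB zinc finger genes tend to lie in clusters of related copies. Myc encodes a transcription factor that binds the E-box CACGTG with its partner Max.

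The target for Myc was detected on 0 of 7 arrays (signal from -31.8 to -3.16), so the genotype labels have no check here. Arrays detected between 8573 and 9678 of 24048 targets, where detected means a score of at least 0.99 (1 minus the detection p-value). The heart markers Myl7 and Myh6 were detected on all 7 arrays, while the target for Ryr2, the calcium release channel of heart muscle, was detected on none. The wild-type 3 array stood apart from the rest, with a correlation across genes of at most 0.94 with any other array and an 18S ribosomal RNA signal of 2682. Myc-null 2 was next, at up to 0.97 with an 18S signal of 1523, while the other 5 arrays had 18S signals from 702 to 914. Where leaving out wild-type 3 moved a named Zfp difference strongly, the value without it is given.

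Detection of the Zfp genes was much like that of named genes at large on most counts. Of 149, 66 (44.3%) were detected on at least 3 of 7 arrays and 45 (30.2%) on all 7. A further 10 were detected on 1 or 2 arrays, and 73 (49.0%) on none. Among all 7413 named genes the shares were 45.8% on at least 3 arrays, 39.2% on all 7 and 48.7% on none. The share detected on every array was the lower one for Zfp genes, a difference that was not tested. The Zfp share of 30.2% requires detection on wild-type 3 as well. Zfp932, Zfp654, Zfp322a, Zfp184, Zfp62, Zfp101, Zfp612 and Zfp354a were detected on 6 arrays and had their lowest signal on wild-type 3. Zfp94 and Zfp341, also detected on 6, had theirs on Myc-null 4. The share of all named genes was not taken without wild-type 3, so the part of that array in the difference was not tested.

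The number of Zfp genes detected per array did not separate the genotypes. It was 61, 67 and 53 in wild-type 1, 2 and 3, and 63, 69, 60 and 57 in Myc-null 1 to 4. The lowest count was on wild-type 3, which detected 9594 targets in all, the second highest total. No Zfp gene was detected on every array of one genotype and on none of the other (0 of 149). Shares of other zinc finger families rest on few genes: 8 of 22 Zbtb genes, 6 of 10 Klf genes and 6 of 9 Zc3h genes were detected on at least 3 arrays.

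**Figure D1:**
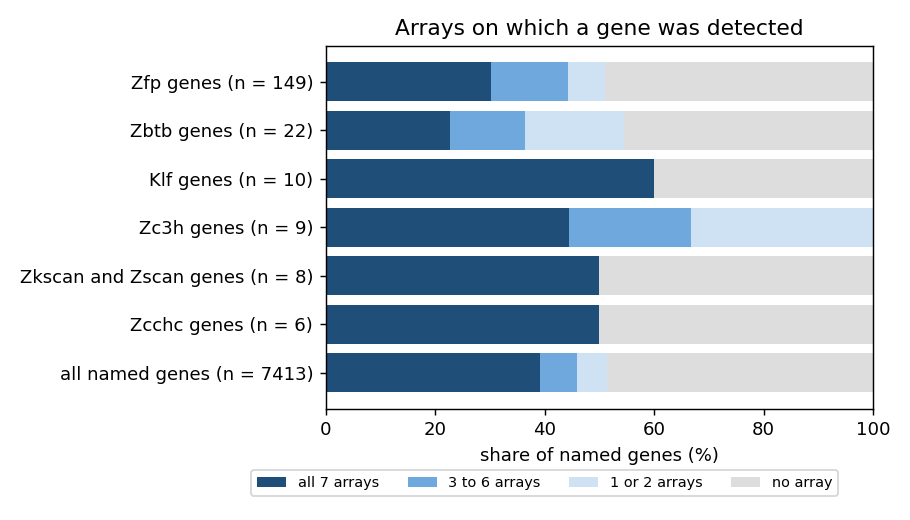
Share of named genes (%, x axis) by the number of arrays that detected them, for families with at least 6 named genes and for all named genes. Of the Zfp genes 30.2% were detected on all 7 arrays and 49.0% on none.

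Detection was also counted by genome neighbourhood, as a description with no test. Where a neighbouring protein-coding gene in the reference table was also a Zfp gene, 24 of 76 (31.6%) were detected on at least 3 arrays, and otherwise 42 of 72 (58.3%). One member, Zfp353-ps, is no protein-coding gene and has no entry in this split. Target sequences were not used here, so hybridisation to related copies could not be examined.

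Promoter windows of the members, from 250 bases before to 50 after each start, came from RefSeq (GRCm38.p6). Windows were found for 117 of the 149 genes, and CACGTG, which reads the same on both strands, was present in 11 of them (9.4%), against 2187 of 27025 genes in the table (8.09%). Of these 11 genes 5 were detected on at least 3 arrays: Zfp933, Zfp747, Zfp292, Zfp207 and Zfp871. Their differences between Myc-null and wild-type hearts, on the log2 scale, ran from -0.22 (Zfp747) to 0.91 (Zfp933), with a median of 0.03. The 44 detected genes without the motif had a median of 0.19. Both medians are over all 7 arrays. Without wild-type 3 the 5 genes, in the order named, were at 0.53, -0.16, -0.20, 0.02 and -0.10. The median of the 44 was not taken without that array. A match describes these letters only.

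Shown are the windows of Zfp931 and Zfp933, the genes with the smallest p and the largest difference among those whose groups did not overlap in the genotype comparison, written 5′ to 3′ on the gene's strand with CACGTG in capitals. The window of Zfp931 is chr2:178078376-178078675 on the minus strand and that of Zfp933 is chr4:147848369-147848668 on the minus strand. The single CACGTG in the Zfp933 window begins 110 bases before the start, and the Zfp931 window has 0.
Zfp931: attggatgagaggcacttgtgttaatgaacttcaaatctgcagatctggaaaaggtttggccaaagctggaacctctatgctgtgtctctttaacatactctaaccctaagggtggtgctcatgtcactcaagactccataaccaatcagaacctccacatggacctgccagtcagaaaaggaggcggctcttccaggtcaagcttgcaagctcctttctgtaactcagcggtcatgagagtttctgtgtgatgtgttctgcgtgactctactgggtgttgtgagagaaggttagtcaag
Zfp933: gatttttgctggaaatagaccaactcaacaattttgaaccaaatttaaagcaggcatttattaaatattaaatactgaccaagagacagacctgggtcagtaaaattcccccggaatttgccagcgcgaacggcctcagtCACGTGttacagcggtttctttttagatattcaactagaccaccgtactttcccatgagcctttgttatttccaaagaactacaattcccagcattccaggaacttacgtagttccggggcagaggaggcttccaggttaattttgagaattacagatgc

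Loss of Myc came with no called change in any Zfp gene. In the limma fit over 9066 units (named genes, each by its brightest target, and unnamed targets), 0 of 66 Zfp genes had an adjusted p under 0.05, where the share of all units called was 0%. The smallest adjusted p in the family was 0.76. Before adjustment 5 Zfp genes (7.58%) had a p under 0.05, against 5.35% of all units. Of these, 4 had higher Myc-null means, where 3.39% of units did, and 1 had a lower mean, where 1.96% did. The groups of arrays did not overlap for 6 Zfp genes (9.09%), against 6.83% of units. Of these, 4 were higher in Myc-null hearts (background 4.07%) and 2 lower (background 2.76%). These shares lay near the background. For the typical Zfp gene the 95% interval spanned 0.50 (log2) in each direction, with a median SE of 0.21. This interval is for 1 gene before adjustment, so it is not the size of change that would be called. The largest difference, 1.12 for Zfp638 (SE 0.72), was not called.

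Differences are Myc-null minus wild-type means of log2 signal, with signals under 58.2 set to that floor, which understates changes of dim genes. They ran from -0.26 to 1.12, with 40 of 66 within 0.25 of 0 and 12 at 0.5 or more. Of these 12, only Zfp931 (0.65) and Zfp933 (0.53) stayed at 0.5 or more without wild-type 3. Myc-null means were higher for 47 Zfp genes (71.2%), against 54.5% of all units, and the median difference was 0.13 against 0.03. Without wild-type 3, 44 of 66 were higher (66.7%), against 54.1% of units, and the median was 0.06 against 0.02. Without wild-type 3 and Myc-null 2 the medians were 0.02 and 0.02, and 41 of 66 were higher (62.1%), against 54.3% of units. Scaling each array to its median moved the median of all units to -0.08, and 38 of 66 Zfp genes (57.6%) were then higher, against 36.7% of units.

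**Figure D2:**
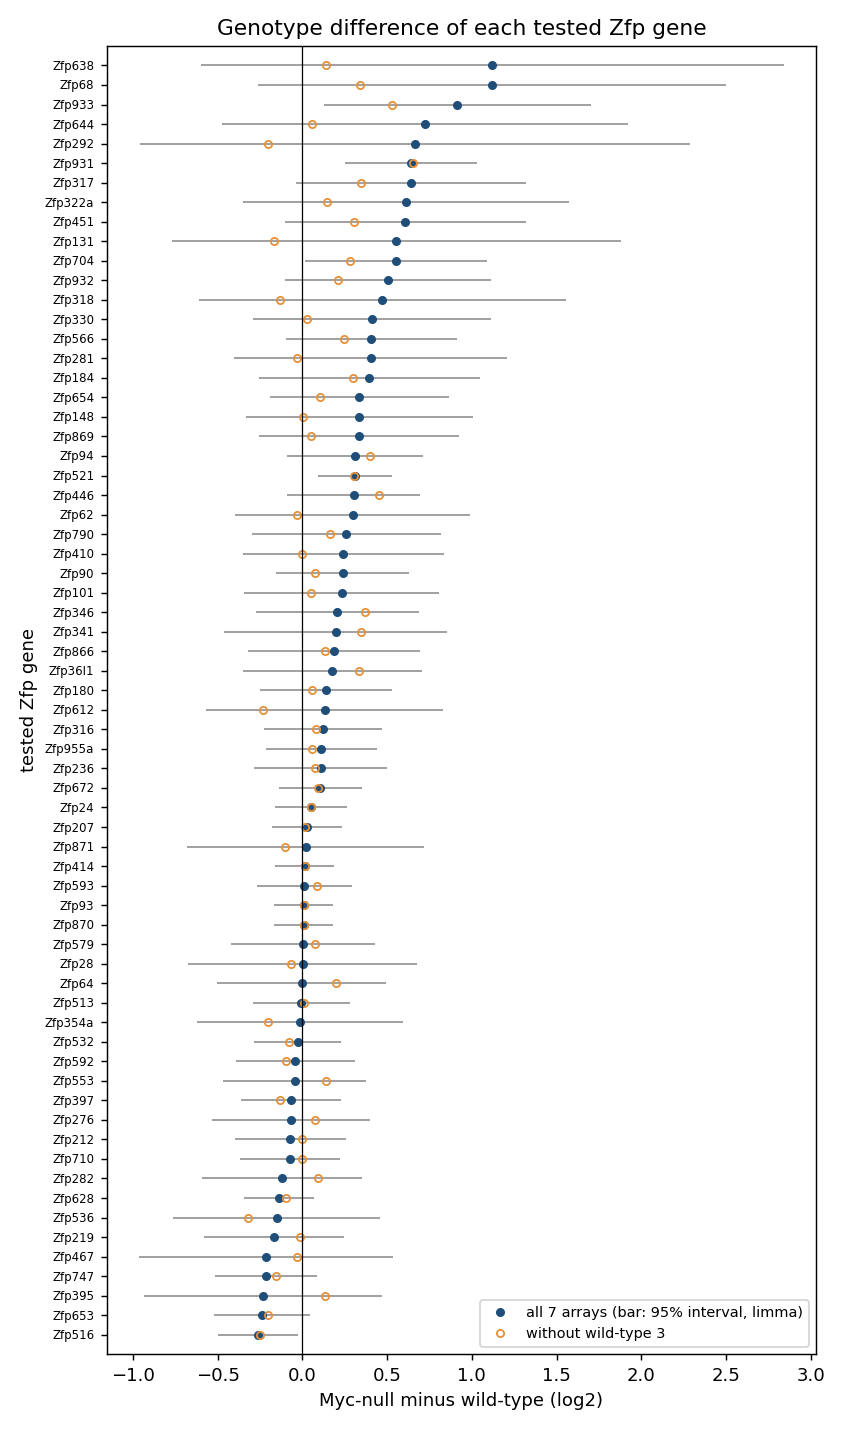
Myc-null minus wild-type difference (log2, x axis) of each of the 66 tested Zfp genes, with the 95% interval of the limma fit on all 7 arrays, and as open circles the difference without wild-type 3. The genes with the largest differences, Zfp638 and Zfp68, move from 1.12 to 0.14 and 0.34.

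Zfp931 had the smallest p of the family. Its signal was 168, 208 and 191 in wild-type 1, 2 and 3, and 263, 365, 246 and 313 in Myc-null 1 to 4. Every Myc-null array lay above every wild-type array. The means were 189 ± 19.97 (SD, n = 3) and 297 ± 53.8 (SD, n = 4), a log2 difference of 0.64 (SE 0.16, limma adjusted p = 0.76). The difference was 0.65 without wild-type 3 and 0.55 without wild-type 3 and Myc-null 2. After scaling to the array median it was 0.51, and its lowest value in any setting tried was 0.46.

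Zfp521, a regulator of blood and neural progenitor cells, had the next smallest p. Its signals were 743, 649 and 686 in wild-type 1, 2 and 3, and 889, 895, 842 and 801 in Myc-null 1 to 4. The groups did not overlap, and the spread within each was small, with means of 692 ± 47.6 (SD, n = 3) and 857 ± 44.2 (SD, n = 4). The log2 difference was 0.31 (SE 0.09, limma adjusted p = 0.76), and 0.30 without wild-type 3. After scaling to the array median it was 0.18.

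Zfp933 and Zfp704 also had all Myc-null arrays above the wild-type ones, with smaller differences once wild-type 3 was left out. Zfp933 measured 122, 137 and 43.6 in wild-type 1, 2 and 3, and 157, 232, 151 and 219 in Myc-null 1 to 4. Its log2 difference of 0.91 (SE 0.33) was 0.53 without wild-type 3. Zfp704 measured 519, 474 and 283 in wild-type, and 541, 639, 689 and 557 in Myc-null 1 to 4. Its difference of 0.55 (SE 0.22) was 0.28 without wild-type 3. Both genes had a limma adjusted p of 0.76 with all 7 arrays and 0.929 without wild-type 3.

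On the lower side stood Zfp516, a cofactor of the thermogenic program of brown fat. It measured 160, 136 and 152 in wild-type 1, 2 and 3, and 118, 118, 133 and 127 in Myc-null 1 to 4. The groups did not overlap, but the gap between the nearest arrays, 136 and 133, was small. The log2 difference was -0.26 (SE 0.10, limma adjusted p = 0.76). Zfp628 was the other gene with all Myc-null arrays below the wild-type ones, at 47.5 to 54.8 against 58.6 to 67.6. Those Myc-null signals lay under the floor, so its difference of -0.14 is understated, and it was detected on 5 of 7 arrays.

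The other genes of smallest p had overlapping groups. Zfp317 and Zfp68 had differences of 0.64 and 1.12, and without wild-type 3 of 0.35 and 0.34. Zfp451, whose human counterpart is a SUMO ligase, had 0.61 and without that array 0.30. Lower means were found for Zfp653 (-0.24), Zfp747 (-0.22), Zfp219 (-0.17), Zfp395 (-0.23), Zfp467 (-0.22) and Zfp282 (-0.12). Without wild-type 3 Zfp219 was at -0.02 and Zfp467 at -0.03, and Zfp653 and Zfp747 at -0.20 and -0.16. Zfp395 and Zfp282 were highest on wild-type 3, and without that array their sign turned, to 0.13 and 0.09.

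**Figure D3:**
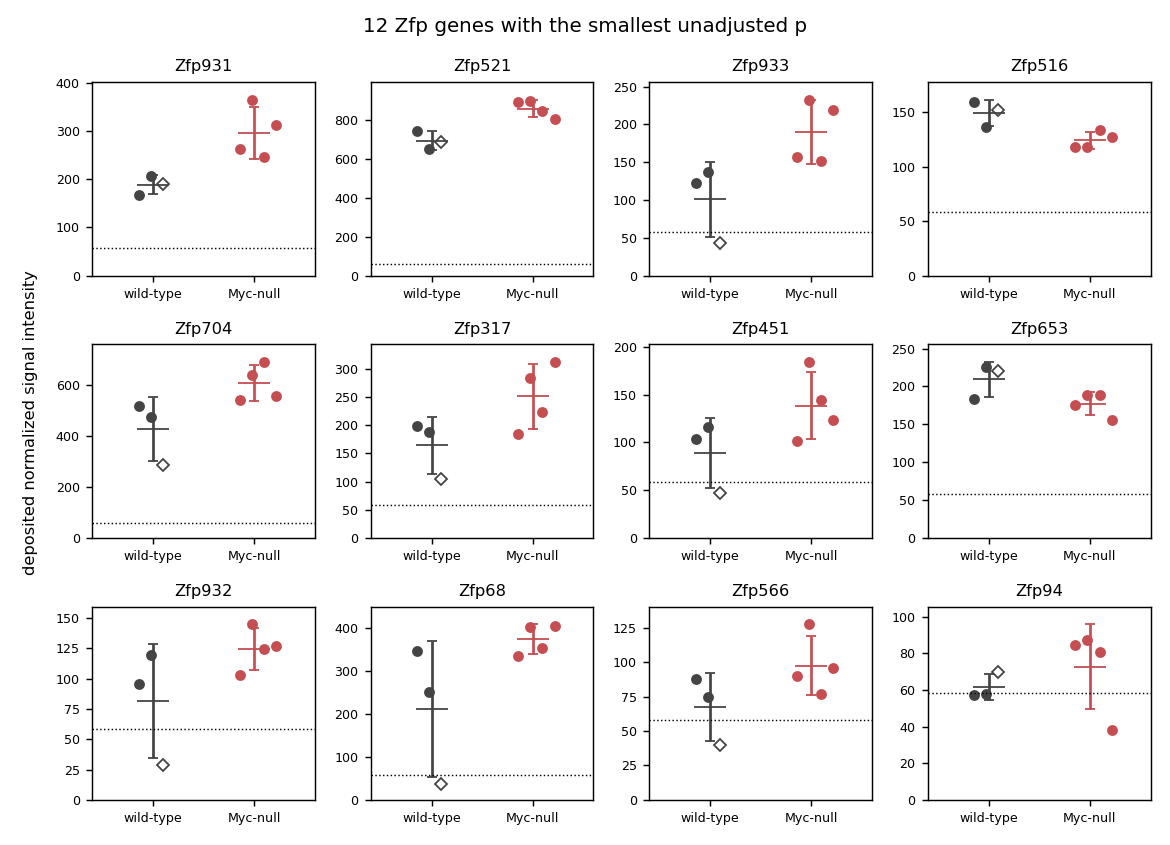
Deposited normalized signal intensity (y axis) in the 12 Zfp genes with the smallest unadjusted p; each point is an array, the open diamond is wild-type 3, bars are mean ± SD (n = 3 and n = 4) and the dotted line is the floor of 58.2. Wild-type 3 is well below the other wild-type arrays in Zfp933, Zfp704, Zfp317, Zfp451, Zfp932, Zfp68 and Zfp566. It lies among them in Zfp931, Zfp521, Zfp516 and Zfp653, and above them in Zfp94.

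Grouped by role, the general transcription and chromatin genes were the best covered. Of 19 listed, 13 were on the arrays by name, 11 were detected on all 7 arrays, with 6 means above and 5 below those of wild-type and a median difference of 0.24. Without wild-type 3, 3 of 11 were above and the median was -0.08. None passed (limma, 0 of 11 adjusted, 1 at an unadjusted p under 0.05, Zfp516). Zfp644, a partner of the histone methyltransferase G9a, had 0.72, and 0.06 without wild-type 3. Zfp532 and Zfp592, which act with the chromatin reader Zmynd8, differed by -0.03 and -0.04. Zfp410, a transcriptional activator of the chromatin remodeller gene Chd4, had a difference of 0.24 and was at 0.00 without wild-type 3. Chd4 itself differed by 0.07. The targets for Zfp384 and Zfp687 were detected on 0 arrays.

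Among genes tied to development, Zfp521, Zfp148 and Zfp281 were detected on all 7 arrays and had higher Myc-null means. Zfp148 binds GC-rich promoters, and Zfp281 acts in pluripotent cells. Their differences of 0.34 and 0.40 became 0.00 and -0.03 without wild-type 3. Zfp260 and Zfp462, also listed, were detected on no array. Of the imprinting, retroelement and pluripotency list, Zfp932, a repressor of endogenous retroviruses in mouse stem cells, was detected on 6 arrays with a difference of 0.51, and 0.21 without wild-type 3. Zfp445 was detected on 1 array, and the pluripotency marker Zfp42 on none.

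The RNA-binding members were few. Zfp36l1, which speeds the decay of AU-rich mRNAs, measured 2131, 1996 and 2874 in wild-type 1, 2 and 3, and 1899, 2982, 2499 and 3252 in Myc-null 1 to 4. The groups overlapped, with a difference of 0.18 (SE 0.22, limma adjusted p = 0.844), and 0.34 without wild-type 3. A second target of the gene, with a mean signal of 89.1, differed by -0.05. Zfp36l2 was detected on no array. Zfp346, which binds double-stranded RNA, differed by 0.21, and by 0.37 without wild-type 3. Zfp593, a factor of ribosome assembly known from yeast and human, was detected on 3 arrays and differed by 0.01.

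Zfp207, which brings the checkpoint protein Bub3 to kinetochores, was the steadiest of the well-detected members named here. It measured 405, 403 and 395 in wild-type 1, 2 and 3, and 401, 419, 439 and 380 in Myc-null 1 to 4. The difference was 0.03, with a 95% interval from -0.18 to 0.23. Zfp579 showed no clear direction either, with a difference of 0.00 and an interval from -0.42 to 0.43, on signals from 869 to 1311.

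Components of the silencing machinery that KRAB proteins recruit were tested where named. Of 17 listed genes 6 were on the arrays by name and 4 were tested. All 4 had higher means, as did 54.5% of all units, and 0 passed (limma, 0 at an unadjusted p under 0.05). Cbx3, a heterochromatin protein, had 0.85 (SE 0.49). Its signals were 1039, 1116 and 277 in wild-type and 1034 to 1424 in Myc-null hearts, again lowest on wild-type 3. On the other wild-type arrays they lay within the Myc-null range, and the difference without wild-type 3 is not given. Uhrf1, Atf7ip and Chd4 had 0.16, 0.09 and 0.07. The target for Cbx5 was detected on no array, and Trim28 and Setdb1 had no target named here.

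Of the 7 arrays, wild-type 3 was the one on which Zfp genes most often lay far below the rest. The variation was not divided between this array and genotype. On wild-type 3, 14 of 66 Zfp genes (21.2%) were at least 1 (log2) below the median of the other 6 arrays, against 857 of 9066 units (9.45%). One Zfp gene, Zfp395, was at least 1 above. Signals under 58.2 were set to the floor here too, so dim genes could fall far and not be counted. Zfp654 measured 7.19 on wild-type 3 and 83.0 to 117 elsewhere, a floored deviation of -0.76. Zfp62 measured 7.89 against 91.5 to 148, a floored deviation of -0.98. Of the 7 arrays wild-type 3 gave the lowest signal in 32 of 66 (48.5%), against 32.2% of units, and the highest in 10 of 66 (15.2%), against 24.3%. After quantile normalization 11 of 66 (16.7%) were still at least 1 below, against 7.56% of units, and after scaling to the median 8 of 66 (12.1%), against 6.09%.

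Some members were far lower on that array and others were not. Zfp638, which binds RNA and is known for silencing retroviral DNA in human cells, measured 114 on wild-type 3 and 837 to 1231 on the other arrays, a log2 deviation of -2.96. Zfp292 measured 125 there and 477 to 978 elsewhere, and its second target 78.4 against 414 to 879. Zfp68 measured 37.4 against 252 to 404, and its second target 39.9 against 230 to 326. In both genes each target had wild-type 3 far below the rest.

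Zfp131, a member that also has a BTB domain, measured 291 against 898 to 1465. Zfp318, which sets the balance of IgM and IgD transcripts in B cells, measured 138 against 377 to 539. Zfp207, Zfp532 and Zfp513 showed no such drop, at 395, 389 and 430 on wild-type 3, within the range of the other arrays. Zfp282 and Zfp219 were highest there, at 826 and 967, against at most 661 and 819 elsewhere.

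**Figure D4:**
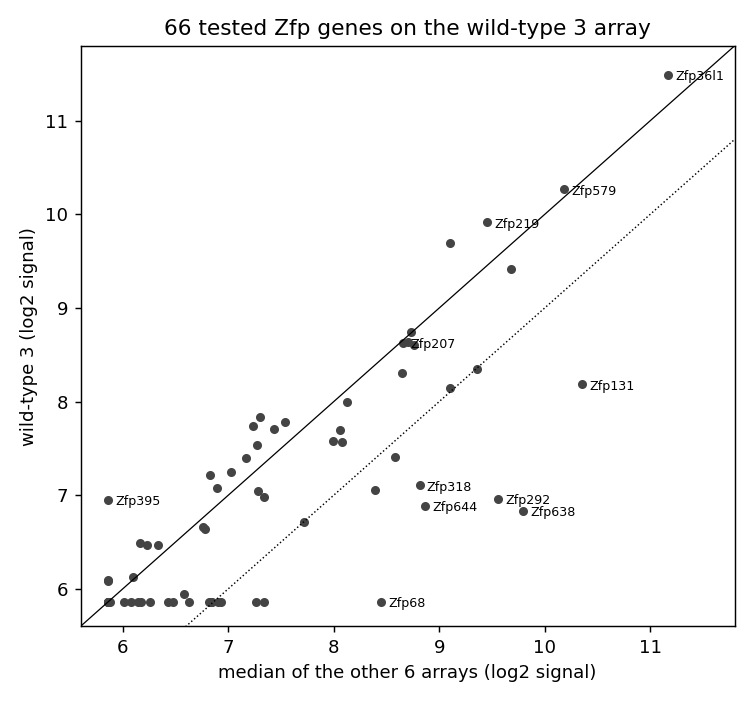
Log2 signal of the 66 tested Zfp genes on wild-type 3 (y axis) against the median of the other 6 arrays (x axis); the solid line marks equality and the dotted line 1 below it, and points at the bottom lie at the floor. Zfp638, Zfp292, Zfp68 and Zfp131 lie far below the dotted line, while Zfp36l1, Zfp579 and Zfp219 lie near or above equality.

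Choosing genes for a low signal on 1 of 3 wild-type arrays lowers their wild-type mean, so their genotype differences on all 7 arrays (median 0.61, all 14 above 0) follow in part from the choice and are no evidence about genotype. Without wild-type 3 the median of these 14 genes was 0.10, and 10 of the 14 were above 0. The 18S ribosomal RNA signal was highest on that array. The summed signal of mesenchymal and cartilage markers (6 of 9 listed were tested and enter the sum) ran from 12720 to 19393 in wild-type hearts, highest on wild-type 3, and from 8363 to 15016 in Myc-null hearts. Epicardial markers (4 of 7) ran from 1182 to 1827 in wild-type, again highest on wild-type 3, and from 1172 to 1614 in Myc-null hearts. In these sums single genes weighed heavily: Dcn of the mesenchymal list (3129) and Wt1 of the epicardial list (418) were instead lowest of all on wild-type 3. Endothelial markers (4 of 8) ran from 2562 to 3712, lowest on wild-type 3, and from 3287 to 4138. The low sum came from Emcn, at 448 there and 1534 to 2079 elsewhere, while Eng was highest there (668). Globin genes, which mark red cells (5 of 10), ran from 77481 to 92921, lowest on wild-type 3, and from 84731 to 122152. That sum is mostly Hba-a1 (51703 on wild-type 3), and among wild-type arrays Hba-x, Hbb-b1 and Hbb-b2 were highest on wild-type 3. Cardiomyocyte markers (2 of 14) summed to 15318 on wild-type 3, inside the wild-type range of 8420 to 17244, and to 9065 to 18332 in Myc-null hearts. Leukocyte markers (2 of 7) summed to between 286 and 295 in wild-type and between 264 and 297 in Myc-null hearts. That sum hides opposite moves on wild-type 3, where Csf1r was highest of all (129) and Lyz2 lowest of all (166). Ptprc, Cd68 and Itgam were detected on no array, and neither was Postn of the mesenchymal list. The part of cell composition or RNA quality in the result was not tested, and in whole hearts fewer cells of a type and less RNA per cell cannot be told apart.

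**Figure D5:**
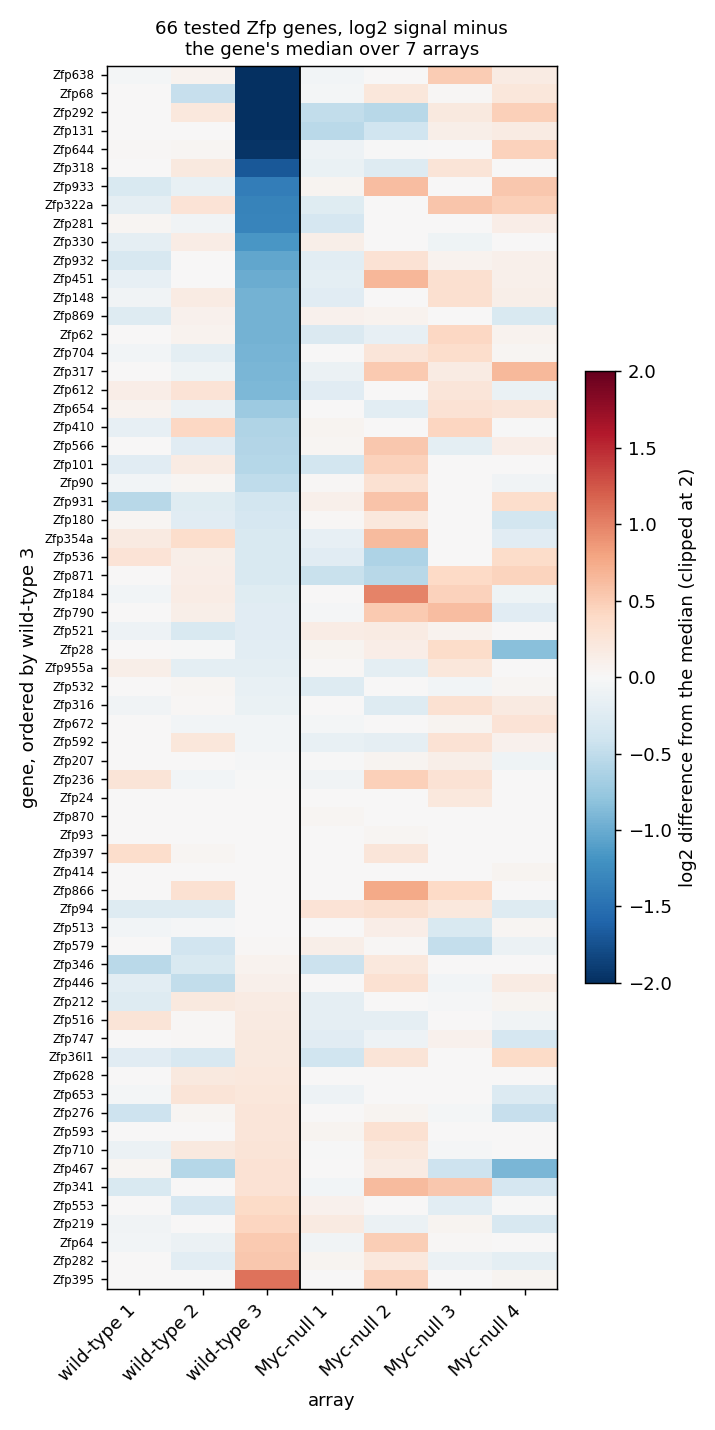
Log2 signal minus the gene's own median over the 7 arrays (colour, clipped at 2) for the 66 tested Zfp genes (rows, ordered by wild-type 3) on the 7 arrays (columns; the line separates the genotypes). The darkest blue cells are in the wild-type 3 column, where 11 genes lie at least 1 below their own median over the 7 arrays. On every other array 0 do. Not all of that column is low, and 10 genes are highest on wild-type 3.

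Where a gene had several tested targets (7 members), their differences were compared. Zfp236 differed by 0.11 and 0.18 and Zfp316 by 0.12 and 0.03. Zfp292 and Zfp68 differed by 0.67 and 0.75 and by 1.12 and 0.87. In both genes each target was far lower on wild-type 3. Without that array their brightest targets differed by -0.20 and 0.34. Zfp317 had 0.64 at its brightest target and 0.10 at the other, and the targets of Zfp36l1 had opposite signs. The targets of Zfp212 differed by -0.07, 0.01 and 0.00, the last with every signal under the floor.

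The authors' deposited table gives 1 difference score per target, without naming its direction. In the authors' deposited table, of 194 Zfp targets 5 (2.58%) scored 13 or more and 0 scored -13 or less, against 1.43% and 0.424% of all targets. All 5 had higher Myc-null means in the fit. The highest Zfp scores in the authors' deposited table were those of Zfp931 (32.2), Zfp521 (19.4) and Zfp933 (17.2). The lowest in the authors' deposited table were those of Zfp729a (-6.61), which was detected on no array, Zfp653 (-5.59) and Zfp516 (-5.20).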

How the data were processed

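Total RNA was amplified and hybridised to 7 arrays, per the labels' protocols. The authors' deposited values are background-subtracted intensity after rank-invariant normalization in BeadStudio, per the series' design text (1.5.0.34 per the submitters' processing notes), and some lie below 0. The file of each array holds unnormalized intensity (BeadStudio 1.5.1.3) with a detection score as a fraction from 0 to 1, per the file headers. The authors' deposited difference score has no stated direction.

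Signals under the floor of 58.2 (median over arrays of the 5th percentile among detected targets) were set to it before log2. Targets detected on at least 3 of 7 arrays were tested with limma 3.58.1 in R 4.3.3, group as the only term, Benjamini-Hochberg adjusted over 9066 units at 0.05. A unit at the floor on every array was given a difference of 0 and a p of 1, a choice made after seeing the data. Each Zfp value averages 24 to 75 beads, and precision is limited by how few arrays there were. The fit was tested on simulated data. The array files name no genome build.

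Members and lists were chosen with earlier results of these data known. Named are the 8 members of smallest p in each direction, the 8 brightest, the 4 most variable, 3 per role list, those with several tested targets, the extremes of the authors' score, and silencing genes. Other Zfp genes named beside these were chosen after their values were seen. A planned split by KRAB box and finger number was not made, since protein sequences were not used here. Signals of different targets do not rank transcripts.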

Additional observations from a re-analysis of the deposited data

Results flagged for a closer look

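Dixon's ratio was computed over the 4 Myc-null arrays for 31 results, and chance flags about 1 in 20. In 1 of them an array was flagged. The log2 signal of Zfp395 reached 6.33 in Myc-null 2, while the remaining Myc-null arrays lay between 5.86 and 5.92, at or just above the floor. The value of wild-type 3, 124 in signal, was higher still. Before the floor the signals of Myc-null 1 to 4 were 38.2, 80.4, 45.4 and 60.5. Setting low values to the floor narrows the spread that the ratio uses. The rate of 1 in 20 need not hold here, and no conclusion is drawn from the flag.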

How the results depend on the processing

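In every setting tried 0 Zfp genes passed the adjusted threshold. Higher and lower genes at an unadjusted p under 0.05 (4 and 1) numbered 2 and 1 after median scaling, 2 and 2 with no filter on detection, and 3 and 2 after quantile normalization. No gene (0) was lower with raw signals after normexp and quantile normalization, with an offset of 64, with detection on all 7 arrays, or without units at the floor, an alternative chosen after seeing the data. Leaving out single arrays gave 2 to 6 higher and 0 to 2 lower. The median difference was 0.049 after median scaling, 0.0039 with a floor 2 times as high, 0.00 with no filter, 0.020 without wild-type 3 and Myc-null 2, and 0.056 to 0.19 without single arrays. With the replicate number as a block 4 were higher and 0 lower. Same-numbered arrays correlated at 0.17, -0.26 and -0.31 in their deviations, and differently numbered ones at -0.32 to 0.34. Deviations from the means of so few arrays cannot decide whether the numbers pair the samples.

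Without wild-type 3 the sign of 15 of 66 Zfp differences turned, none of them called. Among the genes named by rule, signs turned as follows. After quantile normalization, median scaling and raw-signal normalization Zfp579 was at -0.031, -0.13 and -0.030, and Zfp207 at -0.044, -0.10 and -0.039. After median scaling Zfp236 was at -0.021 and Zfp316 at -0.0096. Without wild-type 3 and Myc-null 2 Zfp219 was at 0.0070, Zfp395 at 0.019, Zfp282 at 0.020, Zfp131 at -0.089, Zfp292 at -0.046, Zfp281 at -0.047 and Zfp236 at -0.028. Without single arrays Zfp579 ranged from -0.13 to 0.13, Zfp207 from -0.0068 to 0.063, Zfp212 from -0.22 to 0.0073, Zfp395 from -0.41 to 0.13, Zfp282 from -0.28 to 0.095, Zfp131 from -0.17 to 0.92, Zfp292 from -0.20 to 1.15 and Zfp281 from -0.031 to 0.65. The cause was not tested. With a detection score of 0.95 80 Zfp genes were detected on 3 or more arrays.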
